A study of Mus musculus with 4 samples.

Results

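Mitosis and chromosome segregation genes were read on Affymetrix arrays in cultured marrow of Mll-AF4stop knock-in mice. The list holds 50 genes by name, with no threshold on a measured value: genes whose products drive entry into mitosis, build the spindle and kinetochore, hold the spindle checkpoint, pack chromosomes and divide the cell. Of these, 47 were measured among 12394 genes in all, each by its brightest probe set (the group of probes that reads 1 transcript). Ccnb1 (cyclin B1), Cdca8 and Espl1 were named by no probe set of the annotation used here and were not analysed.

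The Cre-GFP group was knock-in marrow infected with a retrovirus carrying Cre and GFP, where Cre is meant to remove a stop and switch on the Mll-AF4 fusion, and the control group was knock-in marrow infected with a GFP control retrovirus. Mice of both groups had received 5-fluorouracil (5-FU), a drug that kills cycling blood cells, 5 days before their marrow was infected outside the animal. GFP-positive cells were sorted 2 days later and grown for 14 days with cytokines for lymphoid progenitors, and each group has 2 arrays. The sample labels, which were followed, name a GFP control, while the design text writes MIG-Cre for it. Had that virus held Cre, both groups would carry the switched-on fusion. Under the sample labels, effects of Cre itself and of the fusion cannot be told apart. The labels give no age of the mice and do not say if the 2 arrays of a group stand for separate animals, so p-values rest on a spread between 4 arrays that may be technical.

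Cells enter mitosis when cyclin B binds the kinase Cdk1 and Cdc25 phosphatases remove its inhibitory phosphates. Aurora and Polo-like kinases then assemble the spindle, condensins compact the chromosomes, and the spindle checkpoint holds the anaphase-promoting complex until kinetochores are attached. Destruction of securin and cyclin B then frees separase and ends mitosis. Most of these genes are transcribed late in the cell cycle, under the MuvB complex with B-Myb and FoxM1, and in resting cells the related DREAM complex keeps them silent. Both act through a promoter element called the CHR, and many of these promoters also hold CCAAT boxes, which the factor NF-Y binds. In bulk cultures such transcripts follow the share of cells that divide, and fewer dividing cells and less RNA per cell cannot be told apart.

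The members share promoter features that were not used to choose them. The RefSeq table (GRCm38.p6) held a window of 250 bases before to 50 bases after the start for 39 of the 47 measured genes, and the first listed start was taken where a gene had several. A CHR-type element, written TTTGAA or TTCGAA and searched on both strands, was found in 30 of these 39 windows (76.9%), against 14.7% of the 9888 measured genes with a window and 19.4% of all 27025 windows. TTTGAA alone was in 28 and TTCGAA in 4. In 16 of the 30 a match lay wholly before the start, and in the rest matches lay only across or after it. That split was not counted over all genes. CCAAT, also on both strands, was in 30 members' windows (76.9%) against 37.9% of all windows, and 19 members (48.7%) held at least 2 against 12.2%. Both kinds together were in 27 members (69.2%) against 7.7% of all windows. Matches of each motif were counted separately, also where they share bases, and a match describes the letters and is not a binding site.

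The promoters below are shown because their genes have different roles in mitosis and because their motif content differs. Each is the 150 bases that end just before the start, in the direction of transcription, with matches to these motifs on either strand in capitals. They are Cdk1, the mitotic kinase (chr10:69352913-69353062, minus strand), Ccnb2, cyclin B2 (chr9:70421555-70421704, minus strand), Top2a, the topoisomerase that untangles sister chromosomes (chr11:99024190-99024339, minus strand), Cdc20, the activator of the anaphase-promoting complex (chr4:118437344-118437493, minus strand), Kif11, the motor that separates spindle poles (chr19:37376232-37376381, plus strand), and Pttg1, securin (chr11:43425982-43426131, minus strand).
Cdk1: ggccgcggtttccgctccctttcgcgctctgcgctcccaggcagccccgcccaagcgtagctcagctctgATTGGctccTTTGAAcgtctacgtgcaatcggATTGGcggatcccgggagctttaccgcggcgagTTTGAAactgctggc
Ccnb2: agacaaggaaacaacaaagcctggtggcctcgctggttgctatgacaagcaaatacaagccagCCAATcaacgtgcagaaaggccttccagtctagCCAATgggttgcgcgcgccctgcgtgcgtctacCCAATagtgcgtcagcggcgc
Top2a: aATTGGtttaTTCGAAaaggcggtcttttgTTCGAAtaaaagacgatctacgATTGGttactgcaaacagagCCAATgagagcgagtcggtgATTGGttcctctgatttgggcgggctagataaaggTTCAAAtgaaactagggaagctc
Cdc20: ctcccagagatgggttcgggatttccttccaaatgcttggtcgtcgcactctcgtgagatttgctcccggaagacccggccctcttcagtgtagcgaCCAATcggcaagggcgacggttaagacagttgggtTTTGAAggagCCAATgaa
Kif11: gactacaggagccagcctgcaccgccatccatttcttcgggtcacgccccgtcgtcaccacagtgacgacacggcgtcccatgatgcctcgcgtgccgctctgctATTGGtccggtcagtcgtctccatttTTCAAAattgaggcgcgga
Pttg1: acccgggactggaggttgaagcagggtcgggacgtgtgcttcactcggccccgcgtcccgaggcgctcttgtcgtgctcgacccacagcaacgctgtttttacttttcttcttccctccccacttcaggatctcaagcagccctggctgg
Cdk1 holds TTTGAA at 71 and 15 bases before the start among 2 CCAAT boxes, and Ccnb2 shows 3 CCAAT boxes. The full Ccnb2 window also holds 2 TTTGAA matches, which do not fall within the bases shown. Top2a has 4 CCAAT boxes and 3 CHR-type elements in this stretch, and Pttg1 has no match to either.

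No mitosis gene passed the test between the groups. In limma 0 of 47 passed an adjusted p under 0.05 over all genes (0% of the 12394 genes passed), and 0 of 47 reached an unadjusted p under 0.05, while 4.84% of all genes did. Of all genes 2.31% reached it as higher and 2.53% as lower in Cre-GFP. Log2 differences of the members, Cre-GFP minus control, ran from -0.37 to 0.17, and the widest, that of Cdc25b, was 1.29-fold. All 47 of the 95% confidence intervals contained 0, and 46 lay inside a 2-fold change in either direction (log2 differences from -1 to 1). With 2 arrays a group, the values inside an interval are compatible with the data, so differences of those sizes were not excluded.

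Within these limits the members leaned to lower values in Cre-GFP. The mean was lower in Cre-GFP for 31 of 47 members (66.0%) against 49.8% of all genes, and the median log2 difference was -0.098 against 0.00 over all genes. Without control 2 the members' median was -0.039, and without control 1 it was -0.13, with 30 and 33 of 47 lower. Both Cre-GFP arrays lay below both control arrays for 10 of 47 members (21.3%) against 14.9% of all genes. They lay above both control arrays for 2 members (4.26%) against 15.2%. In either direction 30.0% of all genes did not overlap. All 4 pairings of a Cre-GFP with a control array gave a negative median over the members, at -0.060 for Cre-GFP 1 and -0.056 for Cre-GFP 2 against control 1, and at -0.15 and -0.061 against control 2. Over all genes the same 4 medians were 0.016 and -0.035 against control 1, and 0.037 and -0.013 against control 2, so both pairings of Cre-GFP 2 were negative there too. Between arrays of a group, the members' median signed gap was 0.034 for Cre-GFP 1 minus Cre-GFP 2 and -0.075 for control 1 minus control 2. The lean was not tested. These genes share the same 4 arrays, so their number does not count as replication.

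**Figure D1:**
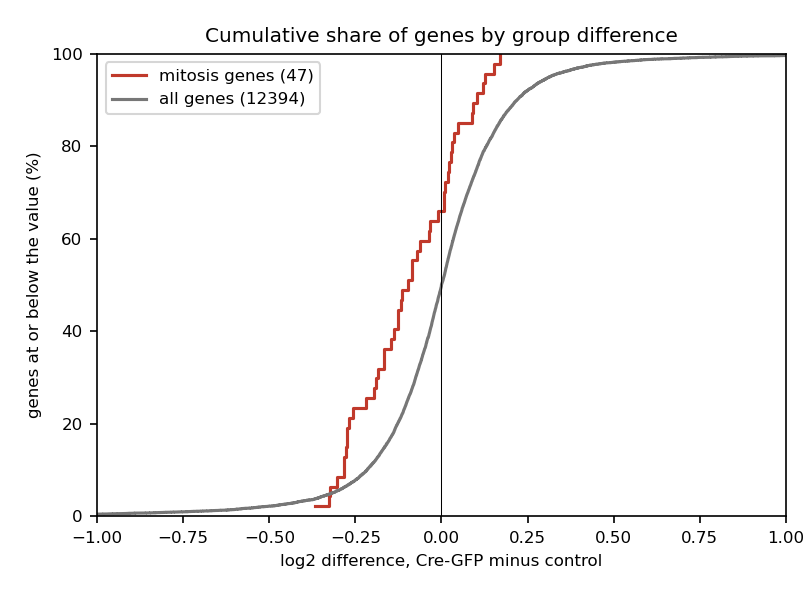
Cumulative share of genes (percent, vertical axis) at or below each log2 difference, Cre-GFP minus control (horizontal axis), for the 47 mitosis genes and all 12394 genes. The mitosis gene curve is narrow, between -0.37 and 0.17, and crosses 0 at 66.0% of its genes.

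The CDK1 engine had all 8 measured members lower in Cre-GFP in mean, with a median log2 difference of -0.12. Of these, 4 were lower without overlap between the groups, against 14.9% of all genes. Ccnb2 read 10.38 and 10.29 on the log2 intensity scale in Cre-GFP 1 and 2, against 10.54 and 10.77 in control 1 and 2. Ccna2, cyclin A2, which pairs with Cdk1 and Cdk2, read 9.0 and 9.17 in Cre-GFP against 9.20 and 9.58 in control. In both genes the 2 Cre-GFP arrays were the lower ones, with log2 differences of -0.33 ± 0.17 and -0.30 ± 0.20 (SE, n = 2 per group, limma unadjusted p = 0.103 and 0.180). Without control 2 they were -0.21 for Ccnb2 and -0.12 for Ccna2, and the second Ccna2 probe set overlapped between the groups at -0.10. Cdk1 itself read 10.34 and 10.58 in Cre-GFP, against 10.43 and 10.66 in control, so the arrays interleave and array 1 is the low one in each group. Its log2 difference was -0.087 ± 0.18, and it was 0.032 without Cre-GFP 1 and 0.027 without control 2.

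Cdc25b, a phosphatase that activates Cdk1, had the lowest difference of the members and the widest interval. It read 8.70 and 8.03 in Cre-GFP against 8.34 and 9.12 in control. The groups overlap, and its log2 difference of -0.37 ± 0.34 was 0.021 without control 2 and -0.76 without control 1. Cks1b and Cks2, small subunits bound to cyclin-dependent kinases, differed by -0.085 and -0.12, Cdc25c by -0.11, and Foxm1, the transcription factor of these genes, by -0.061.

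**Figure D2:**
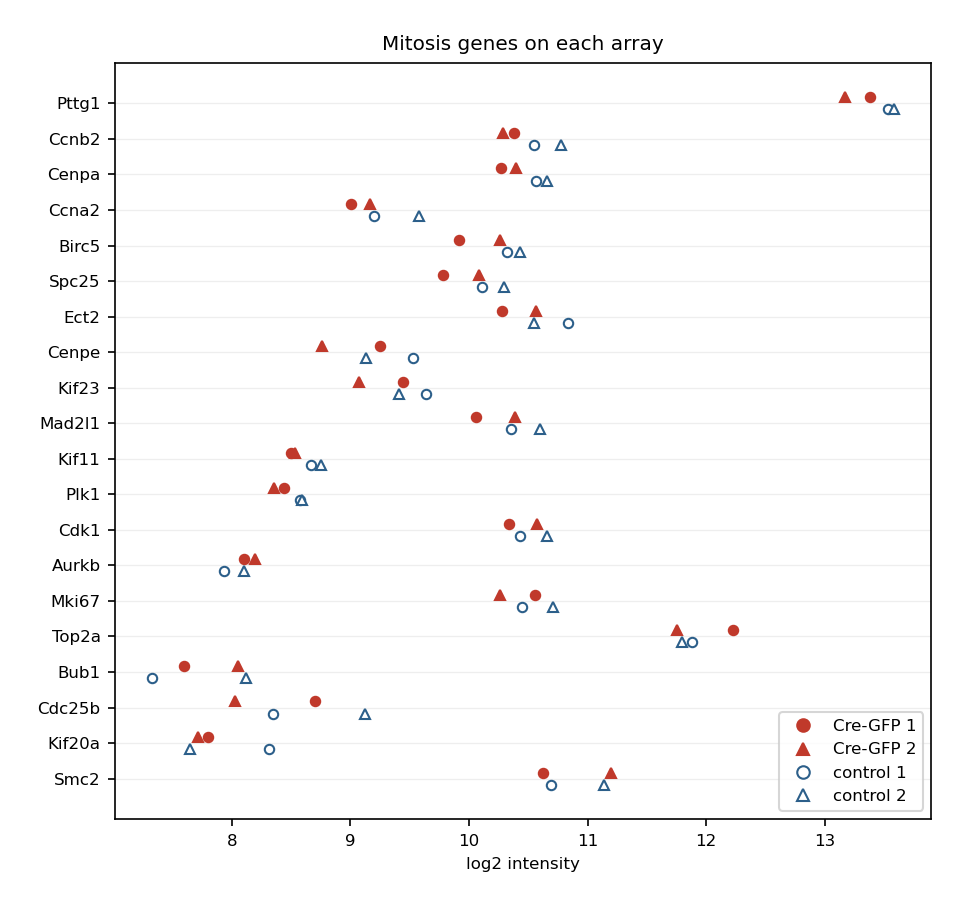
Log2 intensity (horizontal axis) of 20 mitosis genes on each array, with Cre-GFP 1 and 2 as filled circle and triangle above control 1 and 2 as open circle and triangle. The rows are the 12 genes with the smallest p, from Pttg1 to Plk1, then genes kept for their role or their gap between arrays; in Smc2, Bub1 and Cdk1 symbols pair by shape and not by group.

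Among the mitotic kinases and the chromosomal passenger complex, Plk1 and Birc5 were lower without overlap and Incenp higher. Plk1, the Polo-like kinase, read 8.44 and 8.36 in Cre-GFP against 8.58 and 8.59 in control. Birc5, survivin, the passenger subunit that carries the complex to centromeres, read 9.92 and 10.26 in Cre-GFP against 10.32 and 10.43 in control. The log2 differences were -0.18 ± 0.16 for Plk1 and -0.28 ± 0.19 for Birc5 (limma unadjusted p = 0.291 and 0.185), and that of Birc5 was -0.11 without Cre-GFP 1. Aurkb, the kinase of the same complex, read 8.10 and 8.19 in Cre-GFP, against 7.94 and 8.11 in control. Its groups overlap by a small margin, and its log2 difference was 0.13 ± 0.16, or 0.042 without control 1. Incenp, the scaffold, differed by 0.093 (0.046 without control 2) and Aurka, the spindle pole kinase, by 0.030. The other Incenp probe sets overlapped between the groups, at 0.074 and -0.052, so its lack of overlap rests on the probe set read. The 5 measured genes of this role lay on both sides of 0, with a median of 0.030 that was -0.053 without Cre-GFP 1 and -0.069 without control 1.

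Pttg1 had the smallest p of all members. It encodes securin, which blocks separase until anaphase, and read 13.39 and 13.17 in Cre-GFP against 13.54 and 13.59 in control. Both Cre-GFP arrays were below both controls, with a log2 difference of -0.28 ± 0.12 (limma unadjusted p = 0.0577, adjusted p = 1), and -0.18 without Cre-GFP 2. Its 2 other probe sets differed by -0.22 and -0.34, also lower in Cre-GFP. Mad2l1, the checkpoint protein that binds Cdc20, read 10.06 and 10.38 in Cre-GFP, against 10.35 and 10.60 in control, so the groups overlap. Its log2 difference was -0.26 ± 0.20, or -0.092 without Cre-GFP 1. The other checkpoint and anaphase genes overlapped between the groups: Ube2c at -0.19, Cdc20 at -0.13, Bub1b at -0.13, Bub3 at -0.035, Ttk at 0.011 and Bub1 at 0.10. Of the 8 genes of this role, 6 had a lower mean in Cre-GFP, and the median log2 difference was -0.13, or -0.26 without control 1 and -0.068 without control 2.

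Centromere and kinetochore genes had the lowest median of the 7 roles, -0.22, with 5 of 6 lower. Cenpa, the histone H3 variant that marks the centromere, read 10.27 and 10.40 in Cre-GFP against 10.56 and 10.66 in control. Spc25, a subunit of the Ndc80 complex that grips microtubules, read 9.78 and 10.08 in Cre-GFP against 10.11 and 10.30 in control. Neither gene overlaps between the groups, and both differed by -0.28 on the log2 scale (SE 0.16 for Cenpa and 0.19 for Spc25, limma unadjusted p = 0.138 and 0.192). The value of Spc25 was -0.13 without Cre-GFP 1, and its second probe set was also lower without overlap, by -0.32. Cenpe, a kinetochore motor, read 9.25 and 8.76 in Cre-GFP, against 9.52 and 9.13 in control, so array 1 was the high one in each group. Its log2 difference was -0.32 ± 0.24, but -0.080 without Cre-GFP 2 and -0.13 without control 1. The other 2 measured subunits of the Ndc80 complex, Ndc80 and Nuf2, differed by -0.17 and -0.15, and Cenph, an inner kinetochore protein, by 0.0061. Without control 2 the median of this role was -0.12, and that of the CDK1 engine, -0.14, was then the lowest.

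**Figure D3:**
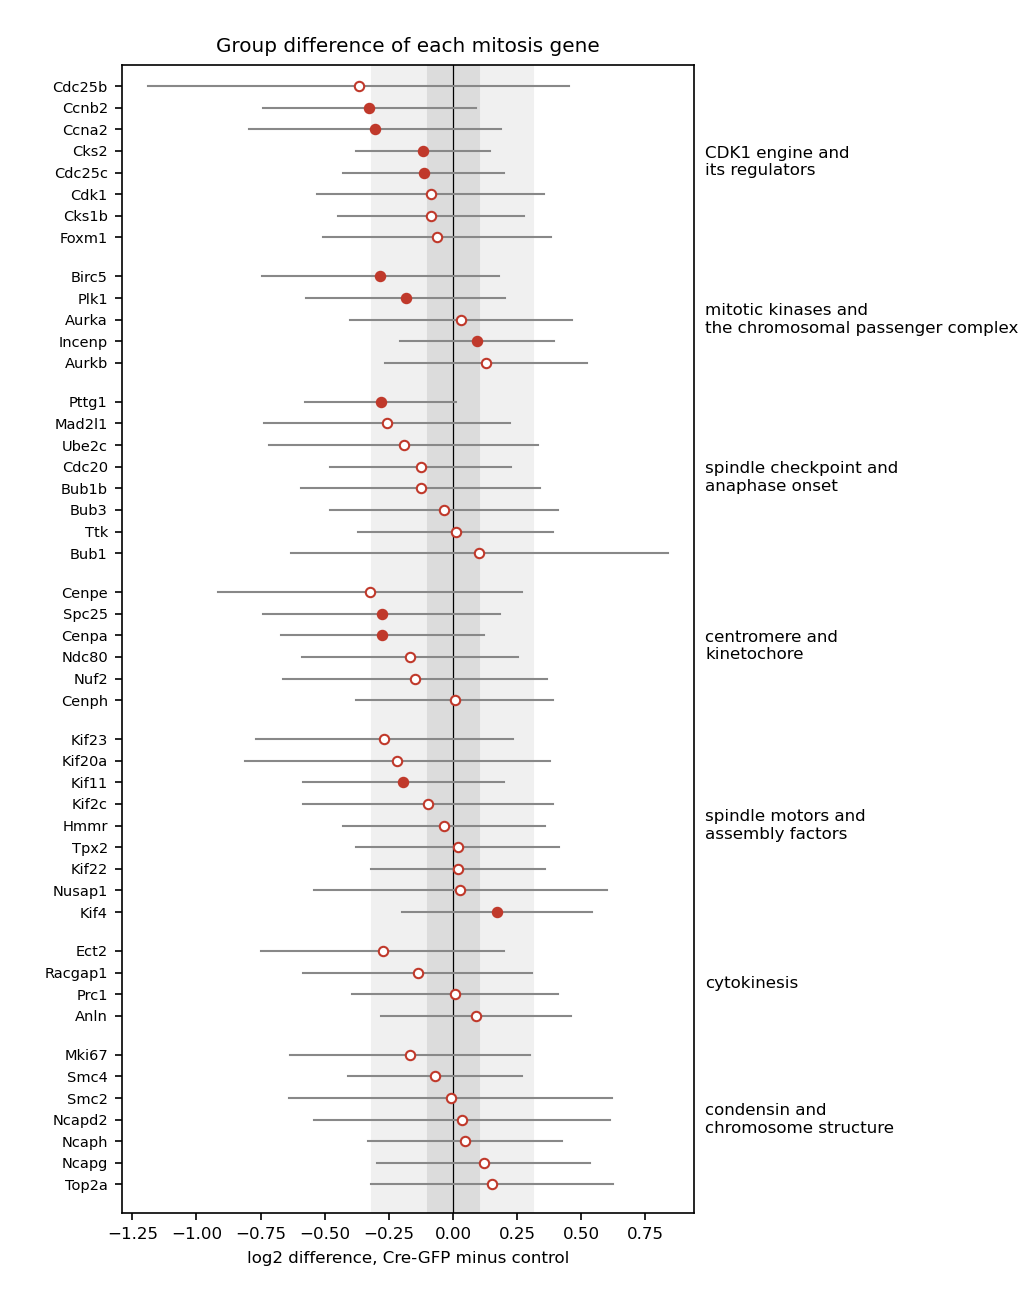
Log2 difference, Cre-GFP minus control (horizontal axis), of each of the 47 measured members by role, as points with limma's 95% confidence interval; filled points mark groups that do not overlap. Grey bands hold the middle 50% (dark) and 90% (light) of all 12394 genes; each interval crosses 0.

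Spindle motors and assembly factors had 5 of 9 members lower and a median log2 difference of -0.035, or -0.093 without Cre-GFP 1 and -0.014 without Cre-GFP 2. Kif11 read 8.50 and 8.54 in Cre-GFP against 8.67 and 8.75 in control, without overlap, a log2 difference of -0.19 ± 0.16 (limma unadjusted p = 0.270). Its 2 other probe sets differed by 1.08 ± 1.19 and 0.14 ± 0.15, so the direction for Kif11 rests on which probe set is read. The mean of the 3 was 0.34 higher in Cre-GFP. It includes the probe set at 1.08, whose 2 arrays lay 2.02 apart in Cre-GFP and 3.52 apart in control. Kif23, a motor of the central spindle, read 9.44 and 9.07 in Cre-GFP, against 9.64 and 9.41 in control. The groups overlap, with a log2 difference of -0.27 ± 0.20, or -0.080 without Cre-GFP 2, -0.16 without control 1 and -0.016 as the mean of its 3 probe sets. Kif20a, which brings Plk1 and the passenger complex to the central spindle, read 7.80 and 7.72 in Cre-GFP, against 8.31 and 7.64 in control. Control 1 stands above the other 3 arrays, and the log2 difference of -0.22 ± 0.24 was 0.12 without it and -0.55 without control 2. Kif4, a chromosome-bound motor, was the highest of the members at 0.17 (0.061 without Cre-GFP 1) and did not overlap. Kif2c (-0.098), Hmmr (-0.035), Tpx2 (0.018), Kif22 (0.021) and Nusap1 (0.029) overlapped between the groups.

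In cytokinesis, Ect2, the exchange factor that activates RhoA at the division plane, read 10.27 and 10.57 in Cre-GFP, against 10.84 and 10.55 in control. The groups overlap, and the log2 difference of -0.27 ± 0.19 was -0.13 without Cre-GFP 1 and -0.13 without control 1. Its partner Racgap1 differed by -0.14, Anln, an actin-binding scaffold of the cleavage furrow, by 0.090 and Prc1, a microtubule bundler of the central spindle, by 0.0080. The median of this role was -0.065, and 0.024 without control 2.

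Condensin and chromosome structure genes had a median log2 difference of 0.036, and none of the 7 was free of overlap, while 30.0% of all genes were. Mki67, the standard marker of dividing cells, which coats mitotic chromosomes, read 10.55 and 10.27 in Cre-GFP, against 10.45 and 10.71 in control. Top2a read 12.23 and 11.75 in Cre-GFP, against 11.88 and 11.80 in control, with Cre-GFP 1 the highest array and Cre-GFP 2 the lowest. The log2 differences were -0.17 ± 0.19 for Mki67, or -0.023 without Cre-GFP 2 and -0.037 without control 2, and 0.15 ± 0.19 for Top2a, or -0.089 without Cre-GFP 1. Smc2, an ATPase core subunit of condensin, read 10.62 and 11.19 in Cre-GFP, against 10.69 and 11.14 in control. Its array 1 and array 2 readings are far apart in both groups while the group means differ by only -0.0095. Smc4, the other core ATPase, differed by -0.071, and the condensin I subunits Ncapd2, Ncaph and Ncapg by 0.036, 0.047 and 0.12. Without control 1 and without control 2 the median of this role was -0.0068 and -0.0030.

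In median, arrays of the same group lay farther apart than the groups did. A gap compares single arrays, while a group difference compares means of 2 arrays, which vary less, so the measures are unlike. The median absolute gap over the members was 0.17 between Cre-GFP 1 and 2 and 0.20 between control 1 and 2, on the log2 scale, beside a median absolute group difference of 0.13. Over all genes these were 0.16, 0.15 and 0.10. At least 1 of the 2 gaps exceeded the group difference in 40 of 47 members (85.1%) against 80.1% of all genes. The 7 members with both gaps under the group difference were Ccnb2, Cdc25c, Cks2, Plk1, Pttg1, Cenpa and Kif11, each lower in Cre-GFP.

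The gaps did not run one way. Cre-GFP 1 exceeded Cre-GFP 2 in 25 of 47 members against 59.1% of all genes, and control 1 exceeded control 2 in 17 of 47 against 53.1%. The widest gaps were in control for Bub1, which read 7.60 and 8.05 in Cre-GFP, against 7.33 and 8.11 in control, and for Cdc25b. Bub1, a checkpoint kinase, differed by 0.10 ± 0.30 on the log2 scale, by -0.29 without control 1 and by 0.50 without control 2, and its second probe set by -0.26. In 31 members (66.0%) the gap had the same sign in both groups, against 61.3% of all genes. What arrays of the same number share is not given in the labels. Control 2 was the highest of the 4 arrays in 23 of 47 members, control 1 in 10, Cre-GFP 1 in 9 and Cre-GFP 2 in 5. Over all 12394 genes it was control 2 in 2958, control 1 in 3111, Cre-GFP 1 in 4005 and Cre-GFP 2 in 2368.

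**Figure D4:**
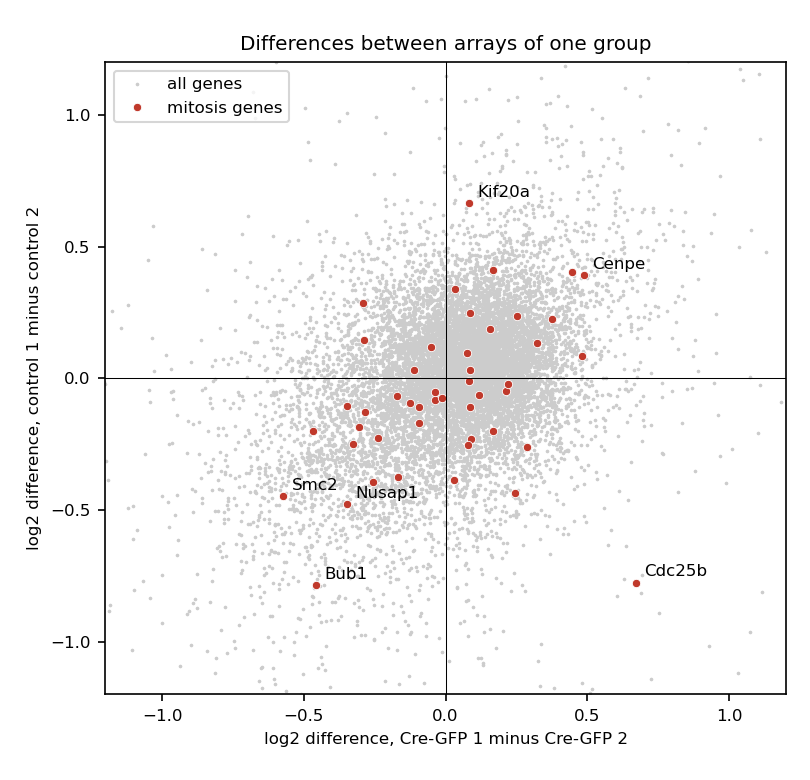
Log2 difference of array 1 minus array 2 within Cre-GFP (horizontal axis) and within control (vertical axis), for the 47 mitosis genes (red) and all genes (grey; 112 lie outside the axes). Cdc25b, Bub1, Kif20a and Smc2 lie farthest out among the mitosis genes, and 31 of 47 points lie in the quadrants where both gaps have the same sign.

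Several probe sets were present for 24 members. The 47 members had 86 in all, and none of the 86 reached an unadjusted p under 0.05 in limma over all named probe sets. The share over all named probe sets was not counted. By genes, on their brightest probe set, it was 4.84%. All probe sets were lower in Cre-GFP for 7 of the 24: Cdc20 and Pttg1 with 3 each, and Ccna2, Cks1b, Cks2, Racgap1 and Spc25 with 2 each. All were higher for 5, namely Aurkb, Ncaph, Nusap1, Prc1 and Tpx2. The other 12 had probe sets of both signs. Of the 39 probe sets not used, 20 had the sign of the one used and 19 the opposite sign. Those of opposite sign include both unused Kif23 probe sets and the dimmest ones of Foxm1 and Bub3. These lay under the 20th percentile of every array, where a sign says little.

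Differences by promoter motif are given as a description, with no test. The median log2 difference was -0.092 for the 30 members with a CHR-type element and -0.15 for the 9 without, with 20 and 6 lower in Cre-GFP, and it was -0.085 for the 19 with 2 or more CCAAT boxes. Ccnb2 and Cdk1, whose promoters above both hold CCAAT boxes, differed by -0.33 and -0.087, and Pttg1, with no match, by -0.28.

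Other genes of mitosis, from a list of 114 of which 85 were measured, lay on both sides of 0. In this list 42 were lower and 43 higher, with a median log2 difference of 0.0047, and 0 passed an adjusted p under 0.05 in limma. At an unadjusted p under 0.05, 2 of the 85 were higher and 1 lower, against 2.31% and 2.53% of all genes. Pimreg, a mitotic regulator of proliferating cells, read 9.09 and 9.28 in Cre-GFP against 8.55 and 8.67 in control, and its difference was 0.57 ± 0.17 (limma unadjusted p = 0.0159, adjusted p = 0.786). Ckap2, a spindle protein, read 7.98 and 7.82 in Cre-GFP against 8.34 and 8.30 in control, a log2 difference of -0.42 ± 0.16 (limma adjusted p = 0.968). Both stand clear of overlap but neither passed. Mis12, a kinetochore scaffold, differed by 0.33 (limma adjusted p = 0.841) and lay under the 20th percentile of every array. Mybl2, the B-Myb factor that drives these promoters, differed by 0.39, and Fzr1, the activator that keeps the anaphase-promoting complex on after mitosis, by 0.30. Depdc1a, Psrc1 and Mad1l1 differed by -0.31, -0.48 and 0.21. Of 37 measured DNA replication genes, 22 were lower, with a median of -0.023 and 0 past the threshold. At an unadjusted p under 0.05 in limma there were also 0, against 4.84% of all genes. The difference between these lists and the members was not tested.

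Cell type markers had wider differences than the mitosis genes, and none passed the adjusted threshold. Of 17 measured B lineage markers, 14 were lower in Cre-GFP with a median log2 difference of -0.45, and their summed intensity was 35836 to 37133 in Cre-GFP and 40952 to 51521 in control. Of 18 myeloid markers, 14 were higher with a median of 0.44, and their summed intensity was 8189 to 9360 in Cre-GFP and 2966 to 8433 in control, where control 1 had the 2966. No marker was listed at 0, and 0 B lineage markers and 1 myeloid marker lay under the 20th percentile on all 4 arrays. In limma 0 of the 35 markers passed an adjusted p under 0.05. At an unadjusted p under 0.05 there were 6 lower B lineage and 5 higher myeloid markers, beside 2.53% of all genes lower and 2.31% higher. Their part in the mitosis gene values was not tested.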

How the data were processed

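Labelled RNA (20 ng amplified per sample) from 2 Cre-GFP and 2 control samples was hybridized to Affymetrix mouse arrays, per the labels' protocols. The authors deposited probe set intensity values on a linear scale, made with RMA per the submitters' processing notes, with no version given in the sources used here. As normally run, RMA corrects background, equalizes arrays by quantiles and summarizes probes, which hides a change common to most genes and compresses changes of dim ones. Median intensity was 85.1 to 87.7 per array. Values were then log2 transformed with no further normalization. Scan batches and scanner files were not analysed here.

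Of 22690 probe sets, 20393 had exactly 1 symbol in the platform annotation, 691 several and 1606 none, and the last 2 kinds were left out. By gene number 20364 matched the RefSeq table (GRCm38.p6), which gave the symbols. The brightest probe set by mean stood for each of 12394 genes. All 47 measured members lay above the 20th percentile of every array. The test was limma 3.58.1 (R 4.3.3), lmFit then eBayes with an intensity trend, two-sided, and p-values of all genes together were adjusted by Benjamini-Hochberg, with 0.05 as the threshold. Of all genes 0 passed and 600 had an unadjusted p under 0.05, and an ordinary two-sample test passed 2, none a member. With 2 arrays a group, an exact two-sided permutation test cannot go below p = 0.333. The number of arrays limits the precision, and the median half-width of a 95% interval was 0.373 on the log2 scale. The procedure was tested on simulated data with known changes. The members and gene lists were chosen with earlier results of these data known. Genes given with array values were the 12 members with the smallest p, Cdk1, Plk1, Aurkb, Mki67 and Top2a (Ccnb1, also in the rule, was not measured), and the 4 with the widest gap between arrays of a group. Of the further mitosis list the 8 with the smallest p were named, and other members by their difference.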

Additional observations from a re-analysis of the deposited data

How the results depend on the processing

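No member passed an adjusted p under 0.05 over all genes in any of the 13 alternatives: another test, no intensity trend, the replicate number as a block, each array left out, other probe set rules, filters and normalizations. At an unadjusted p under 0.05, the count of lower members was 1 with the ordinary two-sample test (Plk1) and 1 without the dimmest 40% of genes (Pttg1). It was 0 in the comparison reported. Over all genes, in either direction, 557 of 12394 reached it with the two-sample test. Without the dimmest genes 383 of 7436 did, against 600 of 12394 in the comparison reported. The median log2 difference was -0.13 to -0.039 over the arrays left out, and 30 to 33 members were lower, a count added after seeing the data. A group left with 1 array was assumed to vary like the other. Over all genes 0 passed in the comparison reported, against 135 without control 1 and 34 without control 2. Members higher without overlap were 4 of 47 with the mean of a gene's probe sets, against 2 in the comparison reported. With plain probe sets only, those without an _a, _s or _x suffix, there was 1 of 34, and 13 members were left out. The shares over all genes under these settings were not counted. Signs turned for Kif11 (0.34) and Bub1 (-0.077) with the mean of probe sets, and for Smc2 (0.011) with quantiles equalized again. Top2a turned (-0.021) with plain probe sets, on a dim one with a mean of 4.95 against 11.91 for the one used. Of the 27 members given by difference alone, 8 turned sign while all arrays were kept. With the mean of probe sets these were Kif22 (-0.12), Ncapg (-0.040), Foxm1 (0.013), Hmmr (0.026) and Smc4 (0.016). With plain probe sets they were Kif22 (-0.22) and Bub3 (0.0047). With quantiles equalized again they were Bub3 (0.014), Ttk (-0.00020) and Cenph (-0.0039). Of the 27, 21 turned sign without at least 1 array. Over single arrays left out, values that turned sign in at least 1 case ran from -0.21 to 0.032 for Cdk1, -0.089 to 0.39 for Top2a, -0.29 to 0.50 for Bub1, -0.76 to 0.021 for Cdc25b, -0.55 to 0.12 for Kif20a and -0.30 to 0.28 for Smc2. The cause was not tested. The other 241 of 254 values of named members kept their sign. Many of these could not turn, because changing only the test, trend, block or gene filter leaves a difference as it was. Raising dim values also changed no member, and the mean of probe sets cannot change a gene with 1 probe set. Without any single array, 20 of 47 members kept their sign, 16 of them lower. With the replicate number as a block in limma, 0 members passed and 0 had an unadjusted p under 0.05. Over all genes 0 passed and 952 of 12394 had an unadjusted p under 0.05. Deviations of Cre-GFP 1 and control 1 from their group means correlated at r = 0.349 over 12394 genes, which are not independent replicates. The labels do not say that equal numbers pair the arrays.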

Other observations

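The Kif11 probe set that differed by 1.08, singled out once its values were known, had 9.77 and 7.75 in Cre-GFP. In control it had 9.44 and 5.92 on the log2 scale. Array 2 was far below array 1 in both groups, and by the sum of the 2 gaps this probe set ranked 1 of 20393. The other 2 probe sets of Kif11 had gaps of 0.018 to 0.12 in size. Mcm3, a helicase subunit of DNA replication singled out in the same way, had 11.20 and 10.19 in Cre-GFP, against 10.92 and 9.18 in control.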
